A study of Mus musculus with 9 samples.

Results

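The comparison set s-shaped bodies against collecting ducts of the embryonic mouse kidney, a young nephron against the branching epithelium that will drain it. Its members were chosen by label: 3 arrays of s-shaped bodies and 3 arrays of collecting duct, 6 of the 9 arrays in the series. The other 3 arrays, of renal vesicles, the stage of the nephron that precedes the s-shaped body, stood in the same fit and serve below as a second reference. All animals were wild-type, of strain 129, at embryonic stage E14.5 (Theiler stage 22) and of unknown sex, and the labels name no treatment. Each s-shaped body and renal vesicle array came from a pool of 20 structures and each collecting duct array from a pool of 1. The structures were microdissected by their shape, and the submitters used antibody and lectin staining and RT-PCR for their identity. The RNA went through 2 rounds of amplification before hybridisation. The labels call a biological replicate a single minimally pooled sample, so the p-values below measure the spread between such samples, with 3 arrays in every group. That spread is between pools of 20 for s-shaped bodies and between single structures for collecting duct. The median SD of a gene was 0.19 and 0.26 in that order, and the fit used 1 common spread per gene. The effects of pool size and of structure cannot be told apart.

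As background, nephrons arise where the tips of the ureteric tree induce the mesenchyme that caps them. The induced cells form a renal vesicle, which lengthens into a comma-shaped and then an s-shaped body. The s-shaped body is patterned along its length: its proximal end gives podocytes and the parietal layer of the glomerulus, and its middle and distal limbs give the proximal tubule, the loop and the distal tubule. Endothelial cells and the mural cells that will become mesangium enter the cleft of its proximal end, drawn by factors that young podocytes secrete. The collecting duct descends from the ureteric bud, has its own junctions, channels and transcription factors, and carries stratified urothelium where it meets the ureter.

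Levels are normalized log2 intensities, on which the median of each array is 7.28 and a deposited intensity of 0 would read 4.70, so a level between these values is dim or not detectable. A difference is the s-shaped body mean minus the collecting duct mean in log2 units, and folds are taken from it, which understates the change of dim genes. A gene was called when limma's Benjamini-Hochberg adjusted p over the 7998 genes tested was under 0.05. By this rule 1355 genes rose and 1271 fell in the s-shaped body arrays, 16.9% and 15.9% of those tested, and 32.8% in all. These shares are the reference for every count of list members below. Against renal vesicle 18.5% of tested genes rose and 17.8% fell. In 43.9% of genes the 3 s-shaped body and 3 collecting duct arrays did not overlap. Pearson's r over these genes was 0.973 to 0.979 between s-shaped body arrays, 0.939 to 0.977 between collecting duct arrays and 0.77 to 0.79 between the structures. Renal vesicle array 3 stood apart, with r of 0.962 to 0.964 to the other renal vesicle arrays, which reached 0.982 with each other, and 0.862 to 0.868 to the s-shaped body arrays, against 0.822 to 0.846 for the others. Values against renal vesicle are given without it where they moved. The Gapdh control probe sets had 3'/5' signal ratios of 20.0 to 32.4 in the s-shaped body arrays and 11.6 to 18.6 in the collecting duct arrays, and the part of this in any result was not tested. Because these are bulk samples, fewer cells of a type and less RNA per cell cannot be told apart.

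Most tested genes of the podocyte, endothelial, mural, stromal, trunk and urothelial lists moved in the direction of their compartment. Those of the proximal tubule, loop and distal tubule and ureteric tip lists, given below, did not move mostly in the same direction. List members were chosen with earlier results of these data known, so the counts are a description. Of 27 podocyte genes on the array, 20 passed the filter on dim genes and 17 of these rose, with none falling, and the median difference of those tested was 3.45. All 40 endothelial genes that passed rose (48 on the array, median difference 2.81), and so did 10 of 14 mural and mesangial genes (21 on the array, median 2.35) and 14 of 21 stromal genes (32 on the array, median 1.92). On the collecting duct side, 33 of 36 trunk genes fell (44 on the array, median -3.0), as did 8 of 10 urothelial genes (16 on the array, median -3.17). In the mural and in the stromal list 1 gene fell. The median over all genes tested was -0.03. A gene that passed the filter through only the structure where it was bright had to differ, so the counts were also taken over every member on the array with no filter, where 11.6% of 12393 genes rose and 10.8% fell. They were then 18 of 27 podocyte, 44 of 48 endothelial, 12 of 21 mural and 16 of 32 stromal genes higher, and 35 of 44 trunk and 10 of 16 urothelial genes lower.

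**Figure D1:**
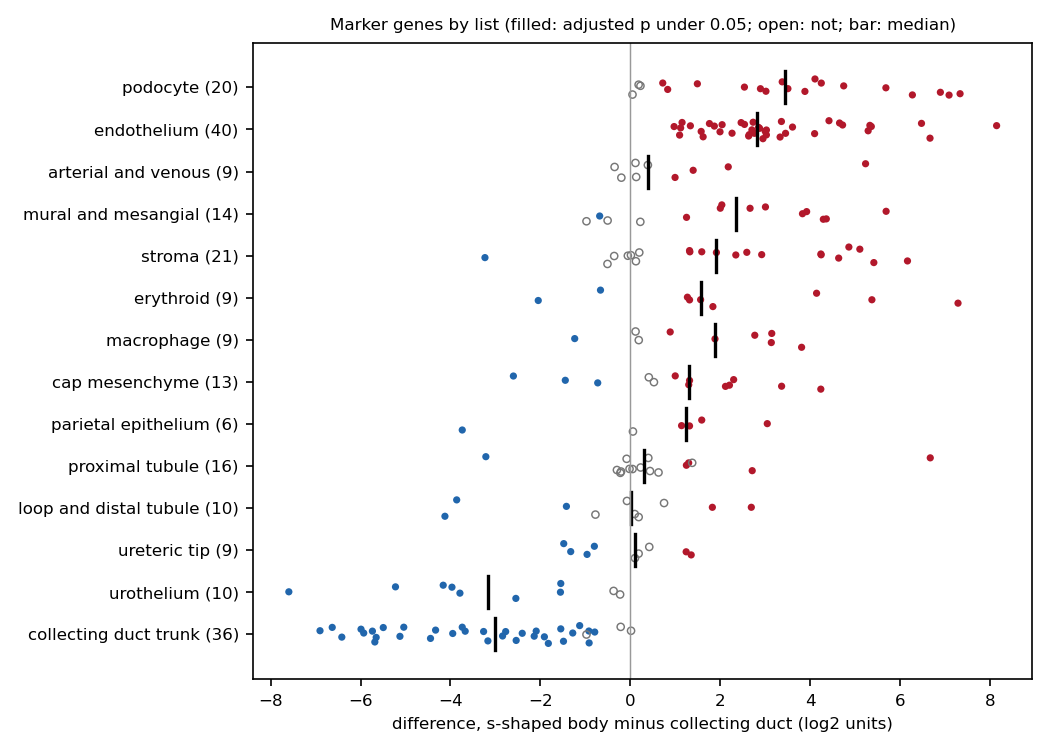
The horizontal axis gives the difference between s-shaped body and collecting duct arrays in log2 units, for the tested members of each marker list, 1 point per gene. Filled points passed the adjusted p threshold, open points did not, and the bar is the list's median, which lies at 3.45 for the podocyte list and at -3.0 for the collecting duct trunk list.

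**Figure D2:**
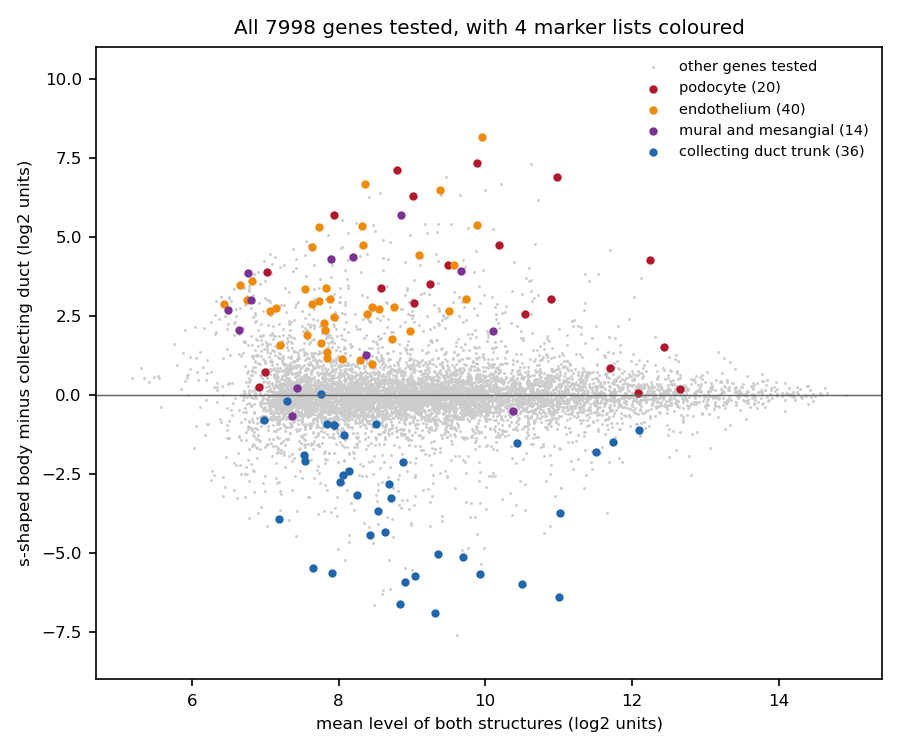
Each point is 1 of the 7998 genes tested, with its mean level over both structures (log2 units) on the horizontal axis and the s-shaped body minus collecting duct difference (log2 units) on the vertical axis. The 40 endothelial genes lie above 0 at every level, and 33 of the 36 trunk genes were called lower.

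The label was checked against genes of all limbs of the s-shaped body, and the check split. Podocyte genes were bright in the arrays labelled s-shaped body, with 20 of 27 means above the array median, while 10 of 30 proximal tubule and 3 of 26 loop and distal tubule means were. Lhx1, a LIM homeobox factor needed to build the renal vesicle and its derivatives, read 6.75, 6.77 and 6.85 in the s-shaped body arrays, 5.94, 5.43 and 4.93 in collecting duct and 10.89, 11.06 and 10.77 in renal vesicles. It lay below the median of its array in all 3 s-shaped body arrays; it was 1.36 ± 0.24 (SE) above collecting duct (limma adjusted p = 0.00071) and 4.12 below renal vesicle (limma adjusted p = 2.7e-07). The s-shaped body arrays enter both of these differences, so they are not independent. Another Lhx1 probe set differed from collecting duct by 0.23 and was not called (limma adjusted p = 0.53). Wnt4, the secreted signal that turns mesenchyme into epithelium, read 5.61, 6.78 and 6.59 against 10.12, 10.49 and 10.92 in collecting duct and 11.23, 11.21 and 11.12 in renal vesicles. It fell by 4.18 ± 0.29 (SE) against collecting duct (limma adjusted p = 3.1e-07), and the highest s-shaped body array stayed under the median. Irx3, a homeobox gene of the middle limb, read 8.61, 8.10 and 8.82 in s-shaped body arrays, between collecting duct at 6.44, 6.68 and 6.92 and renal vesicles at 9.82, 10.50 and 10.45.

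Ligands of the Notch pathway, which directs proximal fates in the s-shaped body, lay between the collecting duct and renal vesicle means. Dll1 read 8.48, 8.48 and 8.46 against 7.79, 7.40 and 7.52 in collecting duct, a rise of 0.91 ± 0.18 (SE), and averaged 10.57 ± 0.27 (SD) in renal vesicles. Jag1 read 6.78, 6.58 and 6.42 against 5.20, 5.57 and 6.38, and its rise of 0.87 (limma adjusted p = 0.031) was lost without either of s-shaped body arrays 1 and 2 or either of collecting duct arrays 1 and 2 (adjusted p = 0.1, 0.073, 0.1 and 0.092 in that order) and with no further normalization (0.059). Hnf4a, the proximal tubule's nuclear receptor, read 8.93, 7.68 and 8.04 against 7.38, 5.98 and 7.39, with array 1 of the s-shaped bodies highest. Its rise of 1.30 (limma adjusted p = 0.028) was lost without s-shaped body array 1 or 3 or collecting duct array 2 (adjusted p = 0.13, 0.054 and 0.12) and with no filter (0.055). Pax8, an early nephron paired-box factor, read 7.58, 7.81 and 7.97 and 7.37, 7.75 and 8.05 in the 2 structures, which overlapped (adjusted p = 0.85), and averaged 9.24 ± 0.14 (SD) in renal vesicles. Calb1, the calcium-binding protein calbindin of the distal nephron and duct, read 7.25, 7.23 and 7.09 in s-shaped bodies and 12.60, 13.18 and 8.59 in renal vesicles, with array 3 lowest. It differed by 0.75 from collecting duct, at 6.38, 6.49 and 6.44, and was not called (adjusted p = 0.54), except without renal vesicle array 3 (adjusted p = 0.008).

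Taken by list, 16 of 30 proximal tubule genes on the array passed the filter; 4 rose, 1 fell and the median difference was 0.32. With no filter 5 of the 30 were higher and 2 lower. The riser with the largest difference, Enpep, an aminopeptidase also known from podocytes and pericytes, made up most of the list's summed level. Lrp2, the endocytic receptor megalin, averaged 7.16 ± 0.14 (SD) in s-shaped body arrays and 7.36 ± 0.09 (SD) in collecting duct (limma adjusted p = 0.46). Slc34a1, the phosphate transporter, read 7.97, 6.68 and 6.73 against 6.57, 6.36 and 6.55 (adjusted p = 0.16). Without s-shaped body array 1 and with the filter taken again, 2 of 12 tested proximal tubule genes rose, and without any 1 collecting duct array, filtered again, none of 15 fell. Of 26 loop and distal tubule genes, 10 passed; 2 rose, 3 fell, and 3 of the 26 had an s-shaped body mean above the array median, against 10 in renal vesicles. Against renal vesicles 1 of the 10 rose and 8 fell, where 18.5% and 17.8% of all tested genes did; without renal vesicle array 3 it was 1 and 7. Sim1, a bHLH-PAS factor, averaged 5.96 ± 0.27 (SD) in s-shaped body and 9.95 ± 0.42 (SD) in renal vesicle arrays, 3.99 apart (limma adjusted p = 2.7e-07). Umod, the thick limb's uromodulin, did not pass the filter and read 6.32, 6.03 and 5.91 in s-shaped body arrays.

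Cell adhesion genes of the nephron gave the same split. Cdh2, the N-cadherin of nephron epithelium, read 8.72, 8.05 and 8.46 in s-shaped bodies against 4.86, 4.92 and 4.93 in collecting duct, where all arrays were near the level of zero intensity. It rose by 3.51 ± 0.20 (SE; limma adjusted p = 6.6e-08), and renal vesicles read from 9.86 to 10.12. Cdh1, the E-cadherin that distal limbs and duct share, read 6.71, 5.96 and 5.85 in s-shaped bodies, 11.79, 11.90 and 12.04 in collecting duct and 9.65, 10.16 and 9.61 in renal vesicles, so the 3 structures did not overlap. Epcam, an epithelial adhesion molecule, had the same order, with 6.14, 6.31 and 5.36, 12.15, 11.81 and 11.64 and 9.72, 10.05 and 9.05. Cdh6, a cadherin of the proximal limb, overlapped between s-shaped body and collecting duct, at 6.71, 6.65 and 7.05 and 6.29, 6.93 and 7.05. Among the genes named here the values were mixed. Lhx1, Wnt4, Cdh1 and Epcam lay below the array median in every s-shaped body array, which goes against the label. Irx3 of the middle limb, Dll1 and Cdh2 lay above the median in every s-shaped body array and were called higher than in collecting duct. Dll1 and Cdh2 are not tied here to the middle or distal limb. Irx3 is among only 3 of 26 loop and distal tubule genes with an s-shaped body mean above the array median, and Irx1 of the same list was tested and not called. S-shaped body therefore stands here for the label of the arrays and not for a checked makeup, and whether the dissected structures were later or otherwise composed than the label says was not tested.

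**Figure D3:**
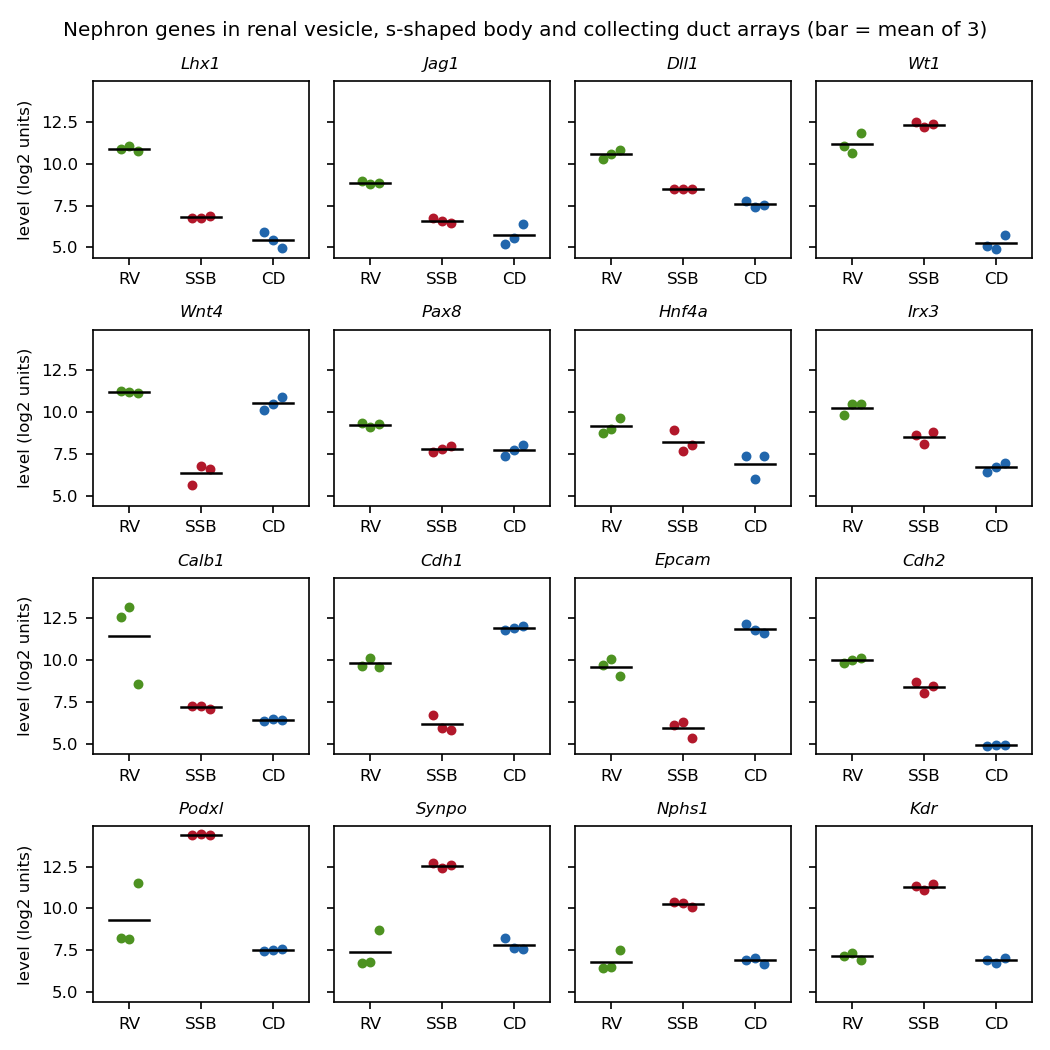
Each panel gives 1 gene, with its level (log2 units) in the 3 renal vesicle (RV), 3 s-shaped body (SSB) and 3 collecting duct (CD) arrays, 1 point per array and a bar at the mean. Lhx1, Wnt4, Cdh1 and Epcam are below 7.28, the array median, in every s-shaped body array, while Podxl, Synpo, Nphs1 and Kdr are higher there than in both other structures.

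Podocyte genes rose among structural proteins, receptors and transcription factors alike. Synpo, which encodes the actin-binding foot process protein synaptopodin, read 12.69, 12.43 and 12.58 in s-shaped body arrays and 8.23, 7.64 and 7.58 in collecting duct, a 26.9-fold rise (4.75 ± 0.41 SE, limma adjusted p = 2.2e-06). Nphs1, which encodes the slit diaphragm protein nephrin, read 10.39, 10.34 and 10.08 against 6.93, 7.06 and 6.68, a 10.4-fold rise (limma adjusted p = 9.7e-07). The groups did not overlap for either gene. Renal vesicles read 6.73, 6.82 and 8.68 for Synpo and 6.41, 6.50 and 7.52 for Nphs1, in both cases highest in array 3. Podxl, the sialomucin that charges the podocyte surface, read 14.41, 14.44 and 14.42 against 7.44, 7.53 and 7.60 and 8.22, 8.16 and 11.54 in renal vesicles, where array 3 was again highest. Ptpro, a receptor phosphatase of the podocyte's apical membrane, read 13.50, 13.59 and 13.58 against 5.98, 5.83 and 6.83. All 4 proteins belong to the podocyte's foot process or its surface.

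The transcription factors of the podocyte were high too. Wt1, the zinc-finger factor of nephron progenitors and podocytes, read 12.47, 12.18 and 12.37 in s-shaped bodies, 5.07, 4.92 and 5.75 in collecting duct and 11.08, 10.67 and 11.84 in renal vesicles. Tcf21, a bHLH factor also of stroma, rose by 6.28 (limma adjusted p = 1.3e-07), from 6.18, 6.34 and 5.13 to 12.02, 12.27 and 12.19. The forkhead genes Foxc2 and Foxc1 rose by 5.69 and 3.51 over collecting duct and by 0.74 and 1.21 over renal vesicle. Wt1, Foxc2 and Foxc1 were above the array median in renal vesicles as well. In the same comparison Synpo was 5.16 and Nphs1 3.46 above renal vesicle, or 5.79 and 3.81 without renal vesicle array 3. Cdkn1c, the cyclin-dependent kinase inhibitor p57 of podocytes that have left the cell cycle, read 14.31, 14.51 and 14.31 against 10.01, 10.32 and 10.05 and 9.47, 9.33 and 10.76 in renal vesicles. Among actin and signalling genes, Arhgap24 rose by 3.02, Plce1 by 2.54 and Rhpn1 by 3.89. Cd2ap, an adaptor that anchors nephrin, overlapped between the structures at 12.24, 11.90 and 12.18 and 12.43, 12.24 and 11.50, and Npnt, the matrix ligand nephronectin, did as well (adjusted p = 0.47). Without renal vesicle array 3, Cd2ap and Npnt were 1 and 1.39 above renal vesicle (limma adjusted p = 0.0083 and 0.00036).

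The wider list of slit diaphragm and foot process genes rose in part. Of 29 on the array, 26 passed; 16 rose, 2 fell and the median difference was 1.22. Slc9a3r2, a scaffold that ties podocalyxin to actin, rose by 4.27 (limma adjusted p = 3.5e-07), and Parva, an adaptor at integrin contacts, by 3.19. Tjp1, the scaffold ZO-1 of tight junctions and slit diaphragms, rose by 1.49. The polarity genes Pard6b and Prkci differed by 0.16 and 0.22 and were not called. Against renal vesicle without its array 3 they were higher, by 1.59 and 0.73, and both were called. The podocyte list's summed linear level was 113725 to 117346 in s-shaped body, 16814 to 22606 in collecting duct and 15971 to 27673 in renal vesicle arrays, and the last 2 overlapped.

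Growth factors for vessels and their receptors rose together with the podocyte genes. Vegfa, the endothelial growth factor that podocytes secrete, read 11.56, 11.46 and 11.56 in s-shaped bodies and 9.55, 8.99 and 9.48 in collecting duct, a 4.55-fold rise (2.19 ± 0.18 SE, limma adjusted p = 1.6e-06). Its receptor Kdr, the endothelial kinase VEGFR2, read 11.36, 11.13 and 11.45 against 6.91, 6.72 and 7.04, a 21.5-fold rise (limma adjusted p = 5.3e-09). Neither gene's groups overlapped. The second receptor Flt1 rose by 2.76 and the co-receptor Nrp1 by 5.24. Vegfc, the ligand of the lymphatic and endothelial receptor Flt4, read 9.29, 9.17 and 9.39 against 4.88, 4.85 and 4.80, where the collecting duct arrays lay near the level of zero intensity, and Flt4 rose by 2.77. The chemokine gene Cxcl12 read 13.06, 13.28 and 13.35 against 6.94, 6.50 and 6.87. In the apelin pair, the receptor gene Aplnr rose by 6.48 and the ligand gene Apln by 0.98. The receptor Tek rose by 2.74, while its ligand Angpt1 did not pass the filter, at 4.86, 4.96 and 4.87 in s-shaped bodies. Of 48 angiogenic signalling genes on the array, 36 passed, 27 rose and 5 fell; the list shares members with the endothelial list.

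Endothelial genes were present across receptors, junctions and transcription factors. Cldn5, the claudin of endothelial tight junctions, read 13.91, 14.01 and 14.17 in s-shaped bodies and 6.35, 6.13 and 5.15 in collecting duct. In renal vesicles Cldn5 averaged 12.39 ± 0.63 (SD), far above collecting duct, whereas the renal vesicle arrays read 7.17, 7.34 and 6.90 for Kdr. Cdh5, the endothelial cadherin, read 8.76, 9.36 and 9.52 against 6.02, 6.06 and 6.69 (2.95 ± 0.28 SE, limma adjusted p = 3.8e-06). The SoxF factors, which specify endothelium, rose by 5.37 for Sox17, 3.36 for Sox18 and 3.34 for Sox7. Plvap, the diaphragm protein of fenestrae, rose by 5.33, and Ehd3, a glomerular endothelial gene, by 2.65. Another Ehd3 probe set differed by 0.67 and was not called (limma adjusted p = 0.057). Pecam1, a pan-endothelial adhesion molecule, did not pass the filter and read 7.27, 7.01 and 7.31 in s-shaped bodies and 5.41, 5.45 and 6.55 in collecting duct, close to or below the array median. Lyve1, a marker of lymphatic vessels, did not pass either and averaged 6.34 ± 0.16 (SD). The list's summed level was 62662 to 64407 in s-shaped body and 3687 to 4133 in collecting duct arrays. Bright genes such as Cldn5 weigh most in this sum. The mean log2 level of the list was 9.11 to 9.18 in s-shaped body and 6.33 to 6.39 in collecting duct arrays. Leaving out any 1 s-shaped body array and filtering again left 21 genes tested, all of which rose. Of 9 tested genes for arterial or venous fate 4 rose and none fell, Nrp1 and the arterial ligand Efnb2 (1.00) among them, and without any 1 s-shaped body array and with the filter taken again, 2 of 7 rose. Another Efnb2 probe set differed by 0.48 and was not called (limma adjusted p = 0.21). Nr2f2 of veins differed by 0.39 (limma adjusted p = 0.26), but was called higher without collecting duct array 3 (0.70, adjusted p = 0.014), with its most variable probe set (0.90, adjusted p = 0.012), with the mean of its probe sets (0.63, adjusted p = 0.018) and with array weights (0.43, adjusted p = 0.015).

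**Figure D4:**
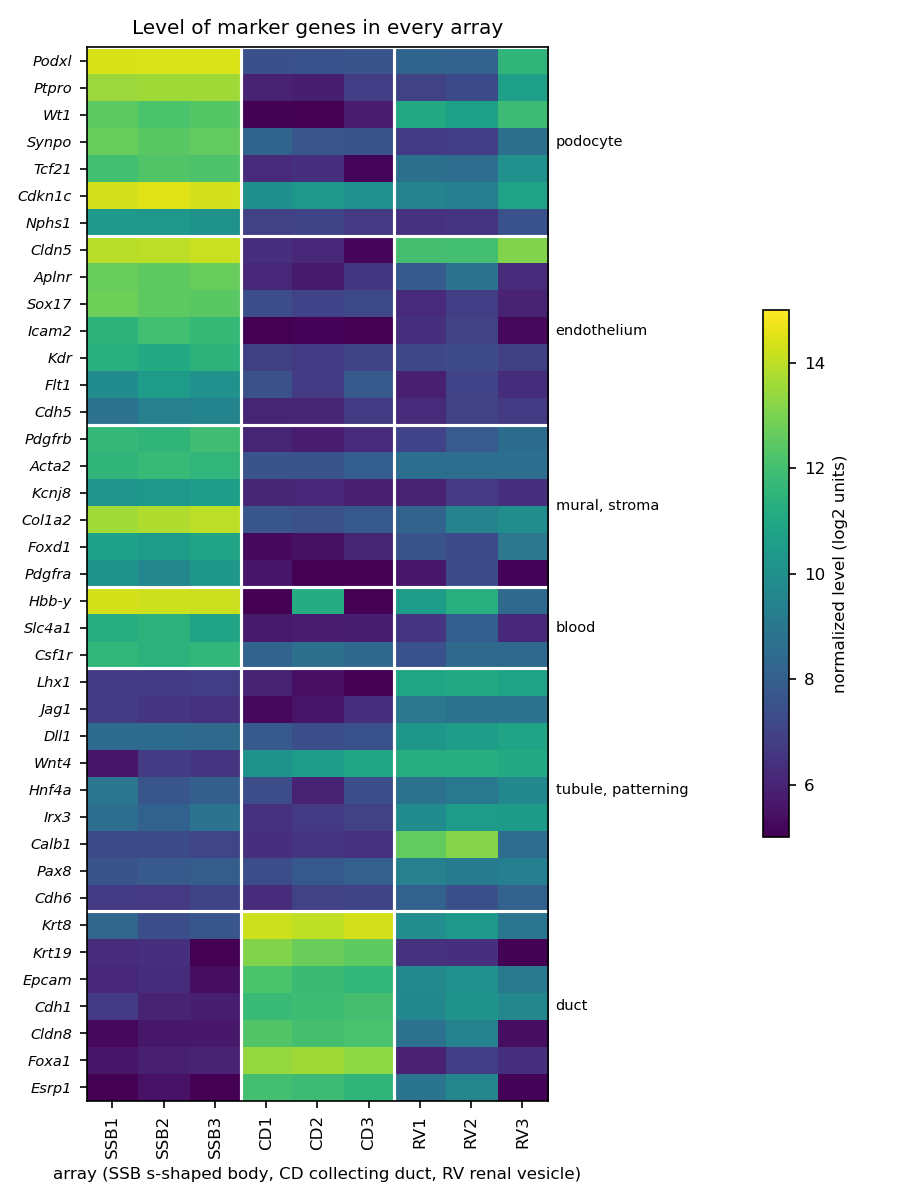
Rows are marker genes in 6 groups and columns are the 9 arrays, and the colour gives the normalized level in log2 units. Podocyte, endothelial, mural and stromal rows are higher in all 3 s-shaped body (SSB) arrays than in all 3 collecting duct (CD) arrays, the duct rows are lower, and Hbb-y is bright in 1 collecting duct array.

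Most tested genes of mural cells and of stroma rose with the endothelial genes. Pdgfrb, the PDGF receptor of pericytes and mesangial precursors, read 11.65, 11.53 and 11.94 in s-shaped bodies against 6.02, 5.82 and 6.20 in collecting duct, a 51.8-fold rise (5.69 ± 0.31 SE, limma adjusted p = 4.6e-08). Acta2, smooth muscle actin, read 11.54, 11.79 and 11.58 against 7.55, 7.58 and 8.00. The potassium channel pair of pericytes, Kcnj8 and Abcc9, rose by 4.36 and 3.01, and the adhesion molecule gene Mcam by 4.30. Myh11, the myosin of mature smooth muscle, did not pass the filter and averaged 5.86 ± 0.50 (SD) in s-shaped bodies. Of the 14 tested mural genes 1 fell, and 3 had every s-shaped body array below every collecting duct array. The fall was lost without s-shaped body array 1 or 2 or collecting duct array 3. With the filter taken again it was also lost without collecting duct array 1 or 2. Array weights, the mean of probe sets, the replicate block and a fit of only the 6 arrays compared each gave 2 falls. Leaving out any 1 s-shaped body array and filtering again left 5 of 9 mural genes higher.

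Foxd1, a forkhead gene of the cortical stroma that also marks podocytes, read 10.71, 10.50 and 10.85 in s-shaped bodies against 5.25, 5.47 and 6.02 in collecting duct, a 34.5-fold rise (limma adjusted p = 4.8e-07). The fibrillar collagen gene Col1a2 averaged 13.81 ± 0.19 (SD) against 7.64 ± 0.14 (SD), and Col3a1 rose by 4.25. Both exceeded renal vesicle, by 4.62 and 1.99. Pdgfra, the receptor of interstitial fibroblasts, rose by 4.87, and the matrix genes Bgn and Postn by 2.93 and 1.92. The nuclear receptor gene Nr2f1 rose by 5.42 over collecting duct and differed by -0.04 from renal vesicle (adjusted p = 0.88). Lum and Dcn, proteoglycans of mature fibroblasts, did not pass the filter. The stromal list summed to 28524 to 32647 in s-shaped body and 3736 to 4326 in collecting duct arrays, a sum in which bright genes such as Col1a2 weigh most. Its mean log2 level was 8.24 to 8.3 in s-shaped body and 6.61 to 6.76 in collecting duct arrays. Smoc2, a matricellular protein, fell by 3.23. The part of the endothelial, mural and stromal genes in any other gene's rise was not tested.

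Blood cell genes were higher as well. Slc4a1, the anion exchanger of red cells, read 11.21, 11.44 and 10.83 in s-shaped bodies against 5.74, 5.78 and 5.83 (limma adjusted p = 3.2e-07), and Alas2, the erythroid haem enzyme, rose by 4.15. Hbb-y, an embryonic globin, read 14.36, 14.23 and 14.21 in s-shaped bodies and 4.78, 11.20 and 4.93 in collecting duct, where array 2 stood apart. Of 17 erythroid genes on the array 9 passed, 7 rose and 2 fell, Tfrc, the transferrin receptor of dividing cells, by 2.05; without s-shaped body array 1 or 2 and with the filter taken again, 4 of 6 rose. Of the 2 that fell 1 was left without s-shaped body array 1 or 3, collecting duct array 2 or 3 or renal vesicle array 3. Csf1r, the macrophage growth factor receptor, read 11.61, 11.41 and 11.64 against 8.18, 8.70 and 8.36 (3.14 ± 0.24 SE, limma adjusted p = 8.4e-07), and Stab1, a scavenger receptor of macrophages and endothelium, rose by 3.15. The complement genes C1qa, C1qb and C1qc did not pass, with s-shaped body means of 6.17, 6.46 and 5.19. Of 26 macrophage genes 9 passed, 6 rose and 1 fell. Without any 1 s-shaped body array and with the filter taken again, 1 or 2 rose. A gene bright only in the s-shaped body arrays cannot pass the filter then. The smaller counts therefore cannot tell lost calls from genes no longer tested. Of 12 lymphocyte genes 2 passed and none was called (1 was higher without renal vesicle array 3), and of 16 neural genes 4 passed, none rose and 1 fell, a call lost without s-shaped body array 1 or 3 or collecting duct array 2 or 3.

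Basement membrane genes moved in part, and bulk arrays do not give the place of any of them. Over all tested genes 16.9% rose and 15.9% fell, and the falls in this list were close to that share. Of 29 basement membrane genes on the array, 26 passed; 12 rose, 4 fell (2 without collecting duct array 2 and with the filter taken again) and the median difference was 0.50. Nid1, which links laminin to collagen IV, read 12.39, 12.04 and 12.25 in s-shaped bodies against 6.82, 6.79 and 6.90 (5.39 ± 0.19 SE, limma adjusted p = 3.4e-09), and Nid2 rose by 4.10. The vascular laminin chain gene Lama4 rose by 4.77 over collecting duct and was -0.81 against renal vesicle. The collagen IV pair of all early basement membranes, Col4a1 and Col4a2, rose by 3.09 and 3.88. Chains of the mature glomerular membrane were not called against collecting duct. Col4a3 averaged 7.03 ± 0.71 (SD) in s-shaped bodies and 6.80 ± 0.48 (SD) in collecting duct, below or near the array median. Col4a5 differed by -0.37 and Lama5 by 0.47, with adjusted p of 0.22 and 0.085. Without renal vesicle array 3, Col4a5 and Lama5 were 1.61 and 1.57 above renal vesicle (limma adjusted p = 0.00025 and 0.00021). Col4a3 then differed from renal vesicle by -0.02. Lama1, the laminin chain of the first nephron epithelium, differed by 0.54 from collecting duct (adjusted p = 0.14) and was 3.10 below renal vesicle; without collecting duct array 1 the first of these was called (adjusted p = 0.018). Lamb3, of the laminin under stratified epithelium, fell by 3.0. Among adhesion receptors 10 of 16 tested rose and 2 fell (1 of 15 without collecting duct array 2 or 3 and with the filter taken again), with the integrin genes Itgb5 and Itga9 up by 2.16 and 1.84 and the tetraspanin gene Cd9 down by 2.80.

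Genes of nephron induction and patterning moved both ways. Over all tested genes 16.9% rose and 15.9% fell against collecting duct, and 18.5% rose and 17.8% fell against renal vesicle. Of 33 on the array 28 passed, 14 rose and 6 fell; against renal vesicle 4 of the 28 rose and 18 fell, or 3 and 17 without renal vesicle array 3. Hey1, a Notch target, read 10.90, 11.06 and 11.21 in s-shaped bodies against 6.66, 6.29 and 5.55 in collecting duct and 11.93, 11.87 and 12.19 in renal vesicles. The receptors Notch1 and Notch2 differed by 0.40 and 0.23 and were not called. Notch2 was called higher with the mean of its probe sets (0.46, limma adjusted p = 0.041), and Notch1 without s-shaped body array 1 (0.52, adjusted p = 0.049). Bmp7, a survival signal of progenitors and podocytes, rose by 2.54. Fgfr1, of mesenchyme, rose by 1.74, and Fgfr2, of ureteric epithelium, fell by 2.50. Another Fgfr2 probe set differed by -0.63 and was not called (limma adjusted p = 0.081). In the cap mesenchyme list 8 of 13 tested rose and 3 fell, and none of the 13 rose over renal vesicle while 8 fell. Gas1, a surface protein that binds growth factors, rose by 4.24; Six2, the factor that keeps progenitors uncommitted, read 7.51, 7.37 and 8.19 against 7.08, 7.55 and 7.20, which overlapped, and Cited1, of the least committed progenitors, did not pass the filter. In the parietal epithelium list 4 of 6 tested rose, the claudin genes Cldn1 and Cldn2 by 1.32 and 1.59 (Cldn1 was lost without s-shaped body array 1, adjusted p = 0.052), and Cdh16, the kidney cadherin, fell by 3.74.

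Genes of the collecting duct trunk fell almost throughout. Cldn8, the claudin of the duct's chloride-selective junction, read 12.28, 12.05 and 12.12 in collecting duct and 5.23, 5.65 and 5.67 in s-shaped bodies (fell by 6.63 ± 0.74 SE, limma adjusted p = 1.9e-05). Scnn1g, a subunit of the epithelial sodium channel, read 10.57, 10.65 and 11.01 against 5.13, 4.86 and 5.27. Tmprss2, a membrane serine protease, read 12.36, 12.19 and 12.24 against 7.42, 7.07 and 6.92, and renal vesicles averaged 7.99 ± 0.37 (SD). The groups did not overlap for any of these. The ETS factors Ehf and Elf5 fell by 5.49 and 3.95, and Wnt7b, the duct's signal to the medulla, by 2.14. Of the 36 tested, 3 were not called, and all 3 are known duct genes. Gata3, the ureteric zinc-finger factor, read 8.00, 8.67 and 8.62 against 7.18, 7.87 and 7.31 (-0.97, adjusted p = 0.12), and it was called lower when the 6 arrays were fitted without the renal vesicles (adjusted p = 0.015). Hoxb7 averaged 7.41 ± 0.30 (SD) and 7.20 ± 0.11 (SD). Aqp2, the water channel of principal cells, averaged 7.75 ± 0.31 (SD) and 7.77 ± 0.49 (SD), near the array median in both. The trunk list summed to 108183 to 112455 in collecting duct, 10427 to 12167 in s-shaped body and 18408 to 25665 in renal vesicle arrays. Of 9 tested tip genes 2 were higher and 4 lower, Spry1 by 1.32, where 16.9% of all tested genes rose and 15.9% fell. The rises were near that share, and without s-shaped body array 2 only 1 tip gene was lower. Ret, the tip's receptor kinase, did not pass the filter and read 7.10, 7.27 and 7.60 in collecting duct.

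Urothelial genes lay on the collecting duct side as well. Trp63, the factor of basal stratified cells, read 11.55, 11.46 and 10.87 in collecting duct and 5.95, 6.22 and 6.04 in s-shaped bodies. The uroplakin gene Upk3a fell by 3.97 and Upk3b by 1.55, while Upk2 differed by -0.22 (adjusted p = 0.56). Leaving out any 1 collecting duct array and filtering again left 3 of 5 urothelial genes lower. The list summed to 21908 to 27534 in collecting duct and 1510 to 1711 in s-shaped body arrays, and its part in the falls of other genes was not tested. In collecting duct 10 of 16 urothelial means lay above the array median, as did 37 of 44 trunk means. Calb1, named above as a gene of the duct, lay below it in every collecting duct array. Collecting duct, too, stands here for the label of the arrays, and their share of urothelium was not tested.

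Junction and epithelial control genes separated by family member, where 16.9% of all tested genes rose and 15.9% fell. Of 23 tested tight junction genes 9 rose and 11 fell: Cldn7 fell by 5.68, Ocln by 4.69 and Cldn23 by 4.68, while Cgnl1, a cingulin-like adaptor, rose by 2.92. Of 22 cadherin and desmosome genes 4 rose and 14 fell. The mesenchymal cadherin gene Cdh11 rose by 4.46, and the desmosomal Dsg2 and Dsc2 fell by 4.85 and 4.89. Their cytoplasmic partners Ctnnb1 and Ctnna1 overlapped between the structures, with differences of 0.04 and 0.10. Of 15 tested epithelial regulators 10 fell and 2 rose. Esrp1, a splicing factor of epithelia, read 12.02, 11.85 and 11.55 in collecting duct and 5.03, 5.47 and 4.99 in s-shaped bodies, and Zeb1, a repressor of E-cadherin, read 6.63, 6.78 and 6.59 and 12.18, 11.89 and 12.09. Neither pair of groups overlapped, and Zeb1 read 8.67, 8.87 and 10.08 in renal vesicles. Without any 1 collecting duct array and with the filter taken again, 6 of 11 regulators fell.

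The promoters of trunk genes are shown with the E box CACCTG, the motif that Zeb1 and its relatives are known to bind. Windows of 250 bases before the RefSeq start (build GRCm38.p6) were matched by symbol for 24 of the 36 tested trunk genes. CACCTG, or CAGGTG on the other strand, stood in 58.3% of these (14 of 24), in 21.3% of 1020 promoters of genes that fell, in 12.7% of 1067 of genes that rose, in 14.7% of 6506 of all genes tested and in 17.1% of 27018 in the RefSeq table. It was looked for after these values were known, beside the GC box GGGCGG, the other E boxes with CACGTG or with CAGCTG, the ETS core GGAAGT, the AP-1 site TGACTCA, the forkhead site TGTTTAC and the CCAAT box. Each was searched on both strands, and none contains another of them. In the endothelial list CACCTG stood in 1 of 22 windows, and the ETS core GGAAGT in 22.7% against 23.1% of tested genes. A match is a description of letters and not of binding. Below are windows of 4 trunk genes with the motif in capitals, each on the gene's own strand: Epcam at chr17:87635729-87635978 (plus strand), Krt8 at chr15:102004343-102004592 (minus strand), Scnn1g at chr7:121734229-121734478 (plus strand) and Cldn4 at chr5:134946935-134947184 (minus strand).
Epcam: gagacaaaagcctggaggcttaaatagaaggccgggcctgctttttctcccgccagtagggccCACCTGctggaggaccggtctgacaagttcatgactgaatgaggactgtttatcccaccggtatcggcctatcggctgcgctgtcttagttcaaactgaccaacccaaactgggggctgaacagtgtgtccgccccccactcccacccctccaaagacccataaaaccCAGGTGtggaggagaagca
Krt8: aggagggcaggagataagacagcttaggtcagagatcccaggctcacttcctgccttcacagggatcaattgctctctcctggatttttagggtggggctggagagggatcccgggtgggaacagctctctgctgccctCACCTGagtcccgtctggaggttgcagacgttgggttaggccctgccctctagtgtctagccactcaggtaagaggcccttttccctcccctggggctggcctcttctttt
Scnn1g: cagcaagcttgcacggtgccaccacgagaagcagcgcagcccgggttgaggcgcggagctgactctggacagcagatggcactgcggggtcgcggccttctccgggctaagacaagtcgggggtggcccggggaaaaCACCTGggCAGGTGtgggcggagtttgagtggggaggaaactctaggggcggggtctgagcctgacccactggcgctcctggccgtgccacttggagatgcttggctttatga
Cldn4: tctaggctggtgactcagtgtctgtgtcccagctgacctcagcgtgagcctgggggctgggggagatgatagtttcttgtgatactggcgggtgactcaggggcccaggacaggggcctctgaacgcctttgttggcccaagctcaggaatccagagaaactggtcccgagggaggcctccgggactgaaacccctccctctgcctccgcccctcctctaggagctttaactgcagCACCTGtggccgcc

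Beyond the compartments, pathway lists differed in how many members moved. Their counts, with the 16.9% and 15.9% of all genes as reference, are given here for 3 of the lists. Among immediate-early and stress genes 4 of 33 tested rose (2 without s-shaped body array 2 or without collecting duct array 1 or 2) and 19 fell, with Egr2, Klf6 and Jun, factors of early response, down by 3.86, 3.82 and 2.55, and Gadd45a, a damage response gene, up by 3.20. Among glycolysis and hypoxia genes 7 of 27 rose (4 of 26 without s-shaped body array 1 and with the filter taken again) and 13 fell. Bnip3, a hypoxia-induced mitochondrial protein, read 9.44, 8.49 and 8.22 in s-shaped bodies against 12.72, 12.44 and 11.96, and Pdk1, which limits entry of pyruvate into mitochondria, fell by 3.39. Epas1, the hypoxia factor of endothelium, rose by 2.11, while Hif1a differed by -0.11 (adjusted p = 0.69). Of 44 tested cell cycle genes 4 were higher (2 without s-shaped body array 2 or 3) and 7 lower, the latter the same 15.9% as over all genes; with array weights it was 11 and 12. Against renal vesicle 2 of the 44 were higher and 30 lower, the latter 28 without renal vesicle array 3. Over all tested genes 18.5% were higher and 17.8% lower than in renal vesicle. Ccnd1, the cyclin of growth signals, averaged 11.69 ± 0.07 (SD) in s-shaped body, 10.44 ± 0.32 (SD) in collecting duct and 13.55 ± 0.19 (SD) in renal vesicle arrays.

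**Figure D5:**
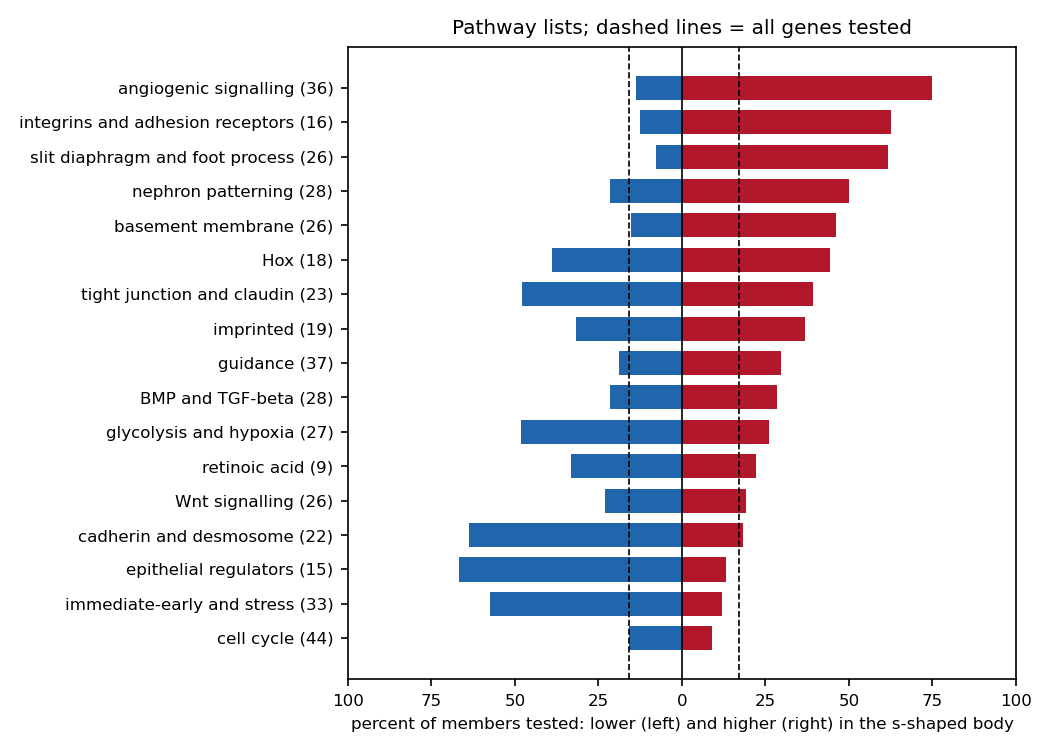
Bars give, for each pathway list, the percent of its tested members (number in brackets) that were called lower (left, blue) or higher (right, red) in s-shaped body than in collecting duct arrays. The dashed lines mark the shares over all genes tested, 16.9% higher and 15.9% lower.

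Positional and imprinted genes split within their families. Of 18 tested Hox genes 8 rose and 7 fell, where 16.9% of all tested genes rose and 15.9% fell. Hoxc8 and Hoxc4 rose by 4.38 and 4.10, and Hoxa10 read 9.46, 9.39 and 9.38 in s-shaped bodies against 5.95, 6.06 and 6.12. In the HoxD cluster, Hoxd10 rose by 2.21, while its neighbours Hoxd9 and Hoxd8 fell by 2.14 and 3.10. Of 19 tested imprinted genes 7 rose and 6 fell. Mest, expressed from the paternal copy in mesenchyme, rose by 4.20, and the maternal non-coding RNAs Rian and Meg3, which neighbour each other, fell by 2.95 and 1.96.

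Of the 30 largest rises, 8 were in no list, and of the 30 largest falls, 12. Plat, tissue plasminogen activator, read 12.72, 12.76 and 12.97 in s-shaped bodies against 6.22, 6.39 and 6.90, and Fabp4, a fatty acid binding protein of capillaries and fat, read 11.86, 11.37 and 11.38 against 5.44, 5.55 and 4.87. Npr3, the clearance receptor of natriuretic peptides, rose by 5.40, and Igfbp3, which binds insulin-like growth factors, by 5.51. Dpp4, a surface peptidase, rose by 5.26. On the falling side, Pkhd1, which encodes fibrocystin, the protein mutated in recessive polycystic kidney disease, read 10.44, 10.76 and 10.89 in collecting duct and 6.38, 5.14 and 4.91 in s-shaped bodies. Ripk4, a kinase of epidermal differentiation, fell by 6.14, and Adh1, an alcohol and retinol dehydrogenase, by 4.86. The groups did not overlap for any of these genes, which was part of how they were chosen.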

How the data were processed

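Affymetrix MOE430A arrays measured RNA of 3 structures, with 3 arrays each. The deposited values are linear intensities that, per the submitters' processing notes, came from GCOS; the trimmed mean (2% off each end) of each array is 500.2, so the authors had scaled them, and array noise and number, not read depth, limit the precision. Genome build and further steps are not given in the sources used here. Probe sets were named through the platform annotation: 20380 of 22690 had 1 gene symbol, 691 several, 1555 none and 64 were controls, and only the first were used. From the deposited intensities, log2(value + 26) was taken (26 is the 20th percentile) and quantile-normalized, because array medians differed by 0.3051, over the limit of 0.25. A gene entered with its brightest probe set above its array's median in at least 3 of 9 arrays. limma 3.58.1 in R 4.3.3 fitted all 9 arrays (lmFit, eBayes with trend, two-sided, 6 residual degrees of freedom), with Benjamini-Hochberg adjustment over 7998 genes of 12393. Renal vesicle comparisons use the same s-shaped body arrays. On simulated data with the same genes, 200 of which were changed, 63% of changes of 1 log2 unit and 98% of 2 were recovered, with 8% and 5.3% of calls false. In the data 32.8% of genes were called, so these rates need not hold for this comparison. Same-numbered arrays were not treated as pairs in the main fit. Their deviations correlated at 0.16, -0.03 and 0.13. Differently numbered arrays were not set beside these values, so they cannot show whether the arrays pair. Named genes are the 30 largest rises and 30 largest falls without overlap, up to 8 called and 4 uncalled members per list by adjusted p, any member of the lists of vessel, mural, stromal, blood and neural cells, and a set of known nephron and duct genes whatever their values. The members, the gene lists and the genes named were chosen with earlier results of these data known. Folds are ratios on the log2(value + 26) scale. Of 83 called genes that the naming rules allow and that had other probe sets past the filter, 70 had at least 1 called in the same direction. In the opposite direction the number was 0. Alternatives covered pseudocount, normalization, filter, probe set, variance model, samples, block, a 2-fold minimum and left-out arrays.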

Additional observations from a re-analysis of the deposited data

Results flagged for a closer look

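The 3'/5' signal ratio of the Gapdh control probe sets, which no comparison above uses, was higher in every s-shaped body array than in every collecting duct array: the lowest s-shaped body value was 20.0 and the highest collecting duct value 18.6. It lay between 11.95 and 14.54 in renal vesicles. The Actb ratio did not separate the structures, at 30.1 to 50.9 in s-shaped body and 34.1 to 42.5 in collecting duct arrays. The part of these ratios in the differences between structures was not tested.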

How the results depend on the processing

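The counts of 1355 genes higher and 1271 lower moved by over 1.5 times under 2 settings: array weights gave 2133 and 2375, and a test against a 2-fold minimum gave 414 and 264, which asks for a larger difference. Requiring brightness in at least 5 arrays tested fewer genes and left 17 of 17 endothelial and 4 of 7 mural genes higher and 1 of 3 urothelial genes lower. Leaving out 1 array in turn, with or without the filter and normalization taken again (taking them again was added after seeing the data), gave 926 to 1429 genes higher and 884 to 1369 lower, 15 to 17 podocyte, 21 to 40 endothelial, 5 to 11 mural and 12 to 14 stromal genes higher, and 29 to 33 trunk and 3 to 8 urothelial genes lower. The lows of 21 endothelial, 5 mural and 3 urothelial genes came with the filter taken again, of 21, 9 and 5 tested. A gene bright in only 1 structure cannot reach the filter's 3 arrays once 1 of them is left out. With the filter kept, no left-out array moved these counts by over 1.5 times. The same limit of the filter holds for every other list counted with the filter taken again. A smaller count there need not mean lost calls. With the replicate block 1354 genes were higher and 1292 lower, although it is not known whether the numbers pair the arrays. With the block Gata3 was called lower (limma adjusted p = 0.046). Without renal vesicle array 3, a setting added after seeing the data, 1375 were higher and 1293 lower. The share of calls that were higher was 51.6%, 53.7% after median centring and 52.4% with no further normalization. None of the named genes reversed its direction past the threshold under the alternatives run. Dim genes limit what can be seen: 7998 of 12393 genes passed the filter.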

Other observations

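Signalling genes outside the angiogenic group moved in both directions, where 16.9% of all tested genes rose and 15.9% fell. Of 26 tested Wnt pathway genes 5 rose and 6 fell. The secreted Wnt inhibitor gene Dkk2 read 9.85, 9.19 and 8.91 in s-shaped bodies against 5.08, 4.84 and 4.94 in collecting duct, while its relative Dkk3 read 6.88, 6.43 and 6.51 against 9.13, 9.94 and 9.78, so 2 members of this family lay on opposite sides. Apcdd1, a membrane inhibitor of Wnt, rose by 2.66. Of 28 tested BMP and TGF-beta genes 8 rose and 6 fell; the type II receptor gene Tgfbr2 rose by 1.43 and the type I receptor gene Tgfbr1 fell by 1.35. Ltbp1, which stores TGF-beta in matrix, rose by 4.60, and Id2, a target of BMP signals, fell by 2.94.

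Of 9 tested retinoic acid genes 2 rose and 3 fell, and the synthesis enzymes separated. Aldh1a2, of stroma and progenitors, read 9.17, 9.09 and 9.06 in s-shaped bodies against 4.87, 4.80 and 4.92 and 9.87, 10.24 and 10.05 in renal vesicles, whereas Aldh1a3, of ureteric epithelium, fell by 2.08, a call that was lost without collecting duct array 2. Of 37 tested guidance genes 11 rose and 7 fell. Plxnd1, the endothelial semaphorin receptor, rose by 3.73 and its ligand gene Sema3e by 2.30. Slit2, which restrains budding of the ureteric tree, read 9.92, 9.58 and 9.76 against 9.96, 10.27 and 10.11 (limma adjusted p = 0.11) and was 2.18 below renal vesicle.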
